A study of Mus musculus with 8 samples.

Results

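The *HoxC* cluster on mouse chromosome 15 was described by the methylation of its CpG islands. Its members were all islands on chromosome 15 in the deposited *Hox* table that had a value in every library. There were 5 of them, out of 7 *HoxC* islands listed, and out of 28 *Hox* islands and 7461 islands of the whole series that had values. The assay was RRBS (reduced representation bisulfite sequencing). The enzyme cuts at CCGG, short fragments are kept and unmethylated cytosines are converted with bisulfite, so that reads come mainly from CpG-rich sequence. The unit was the percent methylation that SeqMonk gave for an island from the calls at its CpGs; how it weights CpGs of unequal coverage is not given in the sources used here.

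Male lines of primary embryonic stem cells (mESCs) were on their way to neuromesodermal progenitors (NMPs), the cells that give rise to spinal cord and trunk mesoderm. *Smchd1* wt lines carried the genotype *Smchd1* fl/+, an intact floxed allele over a wild-type allele. *Smchd1* matΔ lines were *Smchd1* del/+ and came from oocytes in which the floxed alleles had been deleted with Zp3-Cre, which is active in the growing oocyte. Mothers were C57BL/6 and fathers Castaneus, so both genotypes had a wild-type paternal allele, and each line was derived from 1 blastocyst. DNA was taken on differentiation day 2 and again at day 2.5, and the Wnt agonist CHIR99021 is added at day 2 in this protocol. With 2 lines per genotype and day there were 8 libraries in 4 groups, and the cells sequenced at the 2 days of a genotype came from the same lines. *Smchd1* matΔ cells lacked maternal SMCHD1 and were also heterozygous, and these differences cannot be told apart here. Only methylation was measured in these 8 libraries, so the labelled cell type was not checked here against marker genes. The paper followed such genes separately, by RNA sequencing of this differentiation.

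*Hox* genes encode homeodomain transcription factors that give cells their position along the body axis. They lie in 4 clusters, and within a cluster the order of the genes follows the order in which they are activated, from anterior to posterior. *HoxC* genes all lie on the plus strand, with the posterior gene *Hoxc13* at the lowest coordinate and the anterior genes *Hoxc5* and *Hoxc4* at the highest. In stem cells silent *Hox* genes are covered by Polycomb marks, and their CpG islands usually lack DNA methylation. SMCHD1 is a chromatin protein of the SMC family, and the comparison of the genotypes asks about DNA methylation of *Hox* clusters when the oocyte does not supply it.

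The 7 listed islands spanned 94.1 kb on GRCm38 and each lay over coding exon sequence of 1 *HoxC* gene. The whole series lists 8 islands inside this span, so the *Hox* list does not hold every island there. In order from the posterior end these were the islands of *Hoxc13* (chr15:102921192-102922192), *Hoxc12* (chr15:102936835-102937456), *Hoxc11* (chr15:102954318-102955305), *Hoxc10* (chr15:102966502-102967662), *Hoxc9* (chr15:102981651-102982309), *Hoxc8* (chr15:102990435-102991058) and *Hoxc5* (chr15:103014201-103015327). Of the 9 *HoxC* genes, *Hoxc6* and *Hoxc4* had no listed island of their own. The islands of *Hoxc11*, *Hoxc10* and *Hoxc8* contained the transcript start of their gene, and those of *Hoxc13* and *Hoxc12* began 89 and 78 bp after it. The *Hoxc9* island lay 4619 bp downstream of the nearest annotated start, over the exon that holds the start of the coding sequence. The *Hoxc5* island covered the end of one coding exon, an intron that carries the microRNA gene *Mir615*, and the beginning of the next coding exon. The islands without values were those of *Hoxc12* and *Hoxc10*.

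What RRBS could read differed among these islands. Letters of the GRCm38.p6 genome were searched for CCGG, which reads the same on both strands. CpGs within 75 bp of the end of a fragment of 40 to 300 bp were counted as readable, where the fragment sizes are assumed. The *Hoxc13* island had 16 CCGG sites and 82 readable CpGs of 108. *Hoxc11* had 12 sites and 53 readable of 81 CpGs. *Hoxc9* had 13 sites and 42 readable of 80 CpGs. *Hoxc8* had 11 sites and 37 readable of 61, and *Hoxc5* had 11 sites and 35 readable of 82. *Hoxc12* and *Hoxc10*, which had no value, had only 3 and 5 sites, with 31 of 68 and 20 of 74 CpGs readable, fewer than any *HoxC* island that had a value. Over all islands with a value the median was 11 sites and 58 readable CpGs, and 100% held a CCGG. Over all islands without one the medians were 7 and 33, and 98% held a CCGG. Among all islands with 11 to 20 readable CpGs, as at *Hoxc10*, 33.4% had a value. Among those with 31 to 40, as at *Hoxc12*, the share was 45.4%, and it was 53.9% over all listed islands. The islands of *Hoxc8* and *Hoxc5*, which had values, also fall in the group of 31 to 40. Why the islands of *Hoxc12* and *Hoxc10* had no value was not tested.

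**Figure D1:**
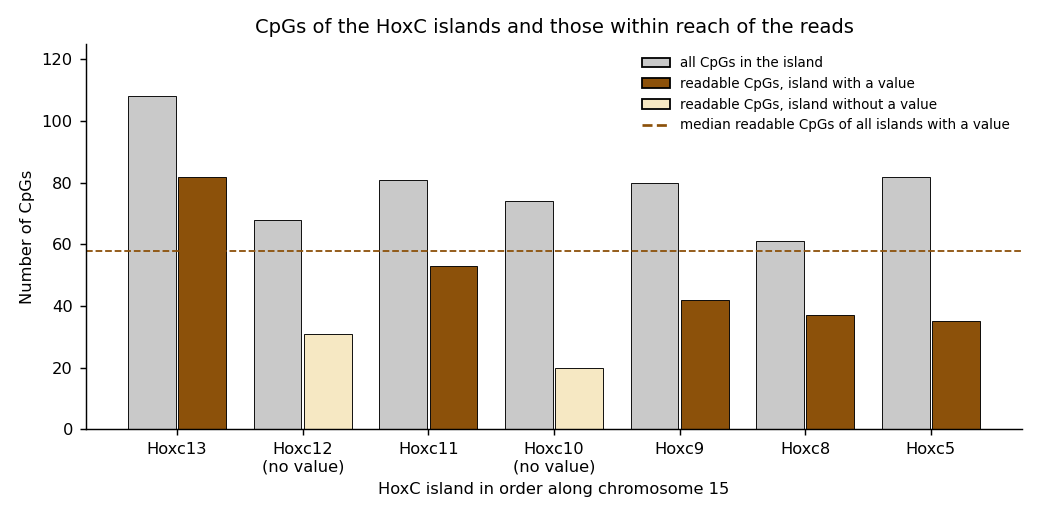
Number of CpGs in each of the 7 *HoxC* islands, in order along chromosome 15 (grey bars), and number within reach of the reads (brown bars, pale where the island had no value); the dashed line is the median of 58 readable CpGs over all islands with a value. Readable CpGs number 82 in the *Hoxc13* island and 35 to 53 in the other measured islands, against 31 and 20 in the islands of *Hoxc12* and *Hoxc10*.

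The stretches below are the 200 bases of each island with the most readable CpGs outside untranslated sequence. They are shown for *Hoxc8*, which had the highest methylation of the cluster, and for *Hoxc11*, which had the largest differences. Both are coding sequence on the plus strand of GRCm38.p6, written 5′ to 3′, and capitals mark CCGG, where the enzyme cuts.
*Hoxc8*, chr15:102990790-102990989: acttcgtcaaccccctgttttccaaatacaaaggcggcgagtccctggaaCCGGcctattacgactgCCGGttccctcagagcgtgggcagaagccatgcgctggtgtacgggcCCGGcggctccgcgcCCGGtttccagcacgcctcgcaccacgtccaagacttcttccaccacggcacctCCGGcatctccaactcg
*Hoxc11*, chr15:102954887-102955086: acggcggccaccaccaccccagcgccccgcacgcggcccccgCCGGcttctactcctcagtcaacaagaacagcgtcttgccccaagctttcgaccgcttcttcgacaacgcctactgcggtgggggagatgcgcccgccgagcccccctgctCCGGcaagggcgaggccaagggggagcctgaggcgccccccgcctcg
The *Hoxc8* stretch holds 5 CCGG sites and 20 CpGs, of which 16 are readable. All 22 CpGs of the *Hoxc11* stretch, which has 2 sites, are readable. The *Hoxc5* island also contains both mature arms of the *Mir615* hairpin, shown from RefSeq on GRCm38.p6 with the seed (bases 2 to 8) in capitals because the 5p arm carries a CCGG in its DNA and the 3p arm does not.
miR-615-5p, chr15:103014926-103014947: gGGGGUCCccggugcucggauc
miR-615-3p, chr15:103014969-103014990: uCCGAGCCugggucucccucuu
The arms have different seeds, and each holds CpGs in its DNA, 2 in the 5p arm and 1 in the 3p arm.

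The *HoxC* islands were close to unmethylated in all 8 libraries. Their 40 values ran from 0 to 3.02%, and 12 of them (30%) were listed at 0, against 38.2% of the values of all islands. Between 1 and 2 of the 5 islands were at 0 in a given library. No more zeros fell on one day than on the other, with 6 of 20 values at day 2 and 6 of 20 at day 2.5. The number of reads behind each value, beyond a low minimum that the study set, is unknown from the deposited percentages. A listed 0 therefore gives only a loose upper limit, and no interval for counting error from the actual reads can be set on any level.

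By the mean over the 8 libraries the islands ranked *Hoxc8* (1.69%), *Hoxc5* (0.806%), *Hoxc13* (0.597%), *Hoxc11* (0.4895%) and *Hoxc9* (0.172%), which is not their order along the chromosome. Among all islands with values, whose median of this mean was 0.406%, 89.9% had a lower mean than *Hoxc8*, 78.8% lower than *Hoxc5*, 69.9% lower than *Hoxc13*, 60.9% lower than *Hoxc11* and 10.7% lower than *Hoxc9*. The *Hoxc8* island was above those of *Hoxc13*, *Hoxc11* and *Hoxc9* in 8 of 8 libraries and above *Hoxc5* in 6. None of the neighbours in the order was separated in every library, since *Hoxc5* exceeded *Hoxc13* in 6 libraries, *Hoxc13* exceeded *Hoxc11* in 6 and *Hoxc11* exceeded *Hoxc9* in 3. In some of the remaining libraries *Hoxc11* and *Hoxc9* were tied at 0.

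**Figure D2:**
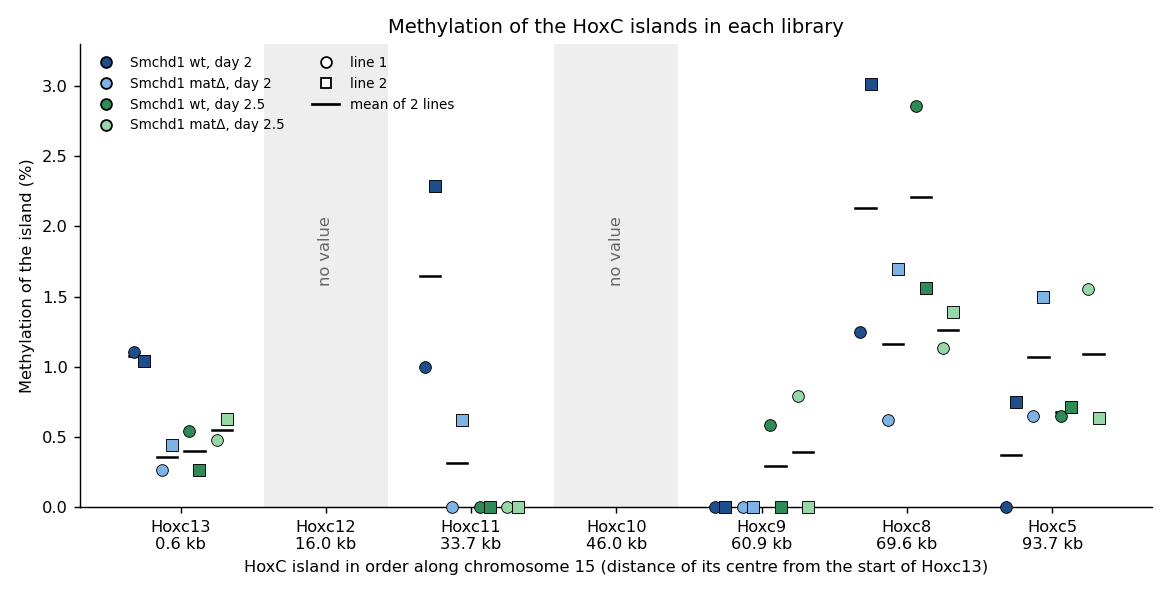
Percent methylation (y axis) of each *HoxC* island in its order along chromosome 15 (x axis, with the distance of its centre from the start of *Hoxc13*), for *Smchd1* wt (dark) and *Smchd1* matΔ (light) at day 2 (blue) and day 2.5 (green). Circles are line 1, squares are line 2 and bars are the mean of 2 lines. All values lie at or under 3.02%, and *Hoxc11* is at 0 in the 4 libraries of day 2.5.

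The genotypes were compared at each day. None of the 5 islands differed between *Smchd1* wt and *Smchd1* matΔ at an adjusted p of 0.05 (limma over 7196 islands, smallest adjusted p 0.968 at day 2 and 0.963 at day 2.5). Across all islands 0% passed at either day. At an unadjusted limma p under 0.05 there was 1 *HoxC* island at day 2 and 0 at day 2.5, where 4.21% and 4.29% of all islands had such a p. At day 2 the mean of *Smchd1* matΔ was lower at 3 islands, higher at 1 and equal at 1. At day 2.5 it was higher at 3, lower at 1 and equal at 1. The median of the 5 differences was -0.72 percentage points at day 2 and 0.10 at day 2.5, and the median over all islands tested was 0 at both days.

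*Hoxc13*, the most posterior gene of the cluster and one with a role in hair and nail formation, had its larger genotype difference at day 2. Its island was then at 1.11% and 1.04% in lines 1 and 2 of *Smchd1* wt and at 0.265% and 0.447% in those of *Smchd1* matΔ. The group means were 1.08% ± 0.0459 and 0.356% ± 0.128 (SD, n = 2 each). The genotypes did not overlap, and they were further apart than the lines of either. The difference was -0.72 points (limma SE 0.315, 95% interval -1.48 to 0.04, adjusted p = 0.968). At day 2.5 the island was at 0.542% and 0.265% in *Smchd1* wt and at 0.481% and 0.626% in *Smchd1* matΔ, and the genotypes overlapped (difference 0.15, 95% interval -0.61 to 0.91, limma adjusted p = 1).

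The *Hoxc11* island, at a gene of hindlimb and posterior trunk patterning, had the largest genotype difference of the cluster. At day 2 it was at 1% and 2.29% in *Smchd1* wt and at 0 and 0.625% in *Smchd1* matΔ. The group means were 1.65% ± 0.913 and 0.312% ± 0.442 (SD, n = 2 each), and here too the genotypes did not overlap. The gap between the *Smchd1* wt lines, 1.29 points, was nearly as large as the difference between the genotypes of -1.33 points (limma SE 0.493, 95% interval -2.52 to -0.15, unadjusted p = 0.0328, adjusted p = 0.968). At day 2.5 all 4 libraries were listed at 0, and there was nothing to compare.

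*Hoxc8*, a gene of thoracic identity, had a lower mean in *Smchd1* matΔ at both days, and both intervals included 0. At day 2 its island was at 1.25% and 3.02% in *Smchd1* wt and at 0.625% and 1.70% in *Smchd1* matΔ, so that the genotypes overlapped. The group means were 2.13% ± 1.25 and 1.16% ± 0.758 (SD, n = 2 each). The difference was -0.97 points (limma SE 0.778, 95% interval -2.84 to 0.90, adjusted p = 0.968). Leaving out line 2 of *Smchd1* wt gave -0.0891 and leaving out line 1 gave -1.85, and for the *Smchd1* matΔ lines it was -0.44 without line 1 and -1.51 without line 2. At day 2.5 it was at 2.86% and 1.56% against 1.14% and 1.39%. These libraries did not overlap, but the gap between the *Smchd1* wt lines was 1.29 points against a difference of -0.95 (95% interval -2.82 to 0.92, limma adjusted p = 0.963). Leaving out line 1 of *Smchd1* wt gave -0.30 and leaving out line 2 gave -1.59.

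The *Hoxc5* island, over a gene of the cervical and upper thoracic region and *Mir615*, had the higher mean in *Smchd1* matΔ on each day. At day 2 it stood at 0 and 0.752% in *Smchd1* wt and at 0.649% and 1.496% in *Smchd1* matΔ, a difference of 0.70 points with overlapping libraries (95% interval -0.53 to 1.93, limma adjusted p = 0.968). For *Smchd1* wt, leaving out line 1 gave 0.32 and leaving out line 2 gave 1.07. For *Smchd1* matΔ the values were 1.12 and 0.27. At day 2.5 it was at 0.649% and 0.714% against 1.56% and 0.635%, a difference of 0.41 that rested on line 1 of *Smchd1* matΔ and was -0.0466 without it (95% interval with all libraries -0.82 to 1.64, limma adjusted p = 0.989). *Hoxc9*, another gene of thoracic identity, was at 0 in all 4 libraries of day 2. At day 2.5 its island was at 0.585% in line 1 of *Smchd1* wt and at 0.794% in line 1 of *Smchd1* matΔ, and at 0 in line 2 of both (difference 0.10, 95% interval -0.62 to 0.83, limma adjusted p = 1). It was thus at 0 in 6 of 8 libraries. The *Hoxc11* island was at 0 in 5, and 28.1% of all islands tested were at 0 in 5 or more.

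In all, libraries of the genotypes did not overlap at 2 of 5 islands at day 2, both lower in *Smchd1* matΔ, and at 1 of 5 at day 2.5, also lower. Over all islands tested, 24.8% did not overlap at day 2 and 25.4% at day 2.5, with 12.1% and 13.6% lower in *Smchd1* matΔ. Counts of 2 and 1 among only 5 islands are too small to be told apart from these shares.

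**Figure D3:**
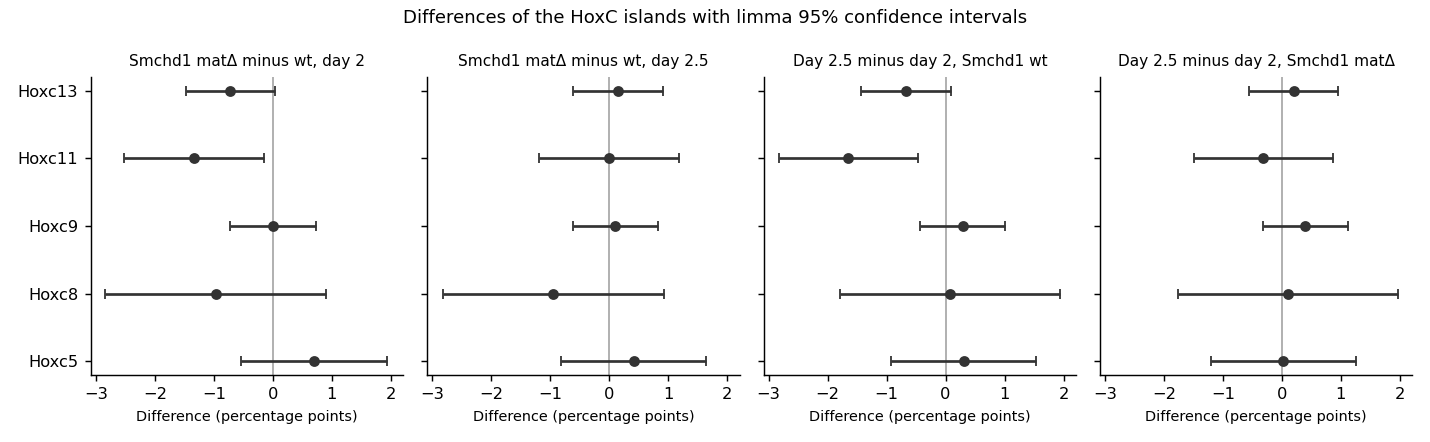
Difference in percentage points (x axis) for each *HoxC* island with a value, for *Smchd1* matΔ minus *Smchd1* wt at each day and for day 2.5 minus day 2 in each genotype; points are limma estimates and bars their 95% confidence intervals. In the fit shown, intervals exclude 0 only for *Hoxc11*, for the genotypes at day 2 (-2.52 to -0.15) and for the days in *Smchd1* wt (-2.83 to -0.46). Neither difference passed adjustment over all islands.

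The days were compared within each genotype. No *HoxC* island differed between day 2 and day 2.5 at an adjusted p of 0.05 (limma, smallest adjusted p 0.986 for the *Smchd1* wt lines and 0.933 for those of *Smchd1* matΔ, and 0% of all islands passed). At an unadjusted limma p under 0.05 the *HoxC* count was 1 for the *Smchd1* wt lines and 0 for the *Smchd1* matΔ lines, where the shares of all islands were 4.07% and 4.41%. That island was *Hoxc11*. Its methylation went from 1% to 0 in line 1 and from 2.29% to 0 in line 2 of *Smchd1* wt, a difference of -1.65 points (limma SE 0.493, 95% interval -2.83 to -0.46, unadjusted p = 0.0139, adjusted p = 0.986). The difference was -1 without line 2 of day 2 and -2.29 without line 1. In *Smchd1* matΔ it was at 0 in line 1 on both days and went from 0.625% to 0 in line 2, a difference of -0.31 (limma adjusted p = 0.996). Being at 0 in all 4 libraries of day 2.5 and above 0 in at least 3 of 4 at day 2 was a pattern chosen after these values were seen. It was shared by 1.03% of all islands tested, and the reverse pattern by 0.82%. Averaged over the genotypes the *Hoxc11* difference between the days was -0.98 (95% interval -1.82 to -0.14, limma adjusted p = 0.834), a contrast also added after seeing the values.

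At *Hoxc13* the day differences had opposite signs in the genotypes. In *Smchd1* wt its island went from 1.11% to 0.542% in line 1 and from 1.04% to 0.265% in line 2 (difference -0.67, 95% interval -1.43 to 0.09, limma adjusted p = 0.986). In *Smchd1* matΔ it went from 0.265% to 0.481% and from 0.447% to 0.626% (difference 0.20, 95% interval -0.56 to 0.96, limma adjusted p = 0.996). Opposite signs in every line, a pattern also picked after these values were seen, were shared by 6.49% of all islands tested. *Hoxc8* differed by 0.08 points between the days in *Smchd1* wt and by 0.10 in *Smchd1* matΔ, with opposite signs in lines 1 and 2 of each genotype. *Hoxc5* differed by 0.31 and 0.02 points, again with opposite signs in the lines. The *Hoxc9* differences of 0.29 and 0.40 points came from line 1 alone in each genotype. Libraries of the days did not overlap at 2 of 5 islands in *Smchd1* wt and at 1 of 5 in *Smchd1* matΔ, against 24.9% and 24.4% of all islands tested.

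Whether the genotype difference itself changed between the days was tested as an interaction. None of the 5 islands passed (limma, smallest adjusted p 0.867, 0% of all islands). At an unadjusted limma p under 0.05 the count was 0 in *HoxC*, and 4.67% of all islands had such a p. The largest interactions were 1.33 points for *Hoxc11* (95% interval -0.34 to 3.01) and 0.87 for *Hoxc13* (95% interval -0.20 to 1.94). Without line 2 of *Smchd1* wt at day 2 this order turned, with 0.69 for *Hoxc11* and 0.90 for *Hoxc13*, and without line 1 the *Hoxc11* value was 1.98. For *Hoxc8*, *Hoxc9* and *Hoxc5* the estimates were 0.03, 0.10 and -0.28 points.

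Taken as the mean over its 5 islands, *HoxC* was at 0.672% and 1.42% in *Smchd1* wt and at 0.308% and 0.853% in *Smchd1* matΔ at day 2. At day 2.5 it was at 0.926% and 0.508% in *Smchd1* wt and at 0.793% and 0.530% in *Smchd1* matΔ. The lines of each group were further apart than the genotypes at both days, and every comparison overlapped. The group means at day 2 were 1.05% ± 0.529 and 0.580% ± 0.385, and at day 2.5 they were 0.717% ± 0.296 and 0.662% ± 0.186 (SD over lines, n = 2 each). These 8 means lay below the mean over all islands of the same library, which ran from 1.41% to 1.62%, and below the means over *HoxA*, *HoxB* and *HoxD* in 8 of 8 libraries. The mean over all islands includes the 2.31% of islands whose own mean is over 10%. The median of the 5 *HoxC* islands was above the median of all islands in 6 of 8 libraries. The means ranged from 1.62% to 2.37% over the 12 *HoxA* islands, from 1.28% to 3.91% over the 5 *HoxB* islands and from 0.685% to 2.39% over the 6 *HoxD* islands. The highest single values were 3.02% in *HoxC*, 10.9% in *HoxA*, 15.7% in *HoxB* and 7.69% in *HoxD*. Means over so few islands depend on single high islands. The highest mean of an island over the 8 libraries was 1.69% in *HoxC*, 7.23% in *HoxA*, 7.53% in *HoxB* and 2.88% in *HoxD*. The medians of the island means lay closer together, at 0.597%, 1.21%, 0.798% and 0.889% in the same order. These levels were not tested against each other, since islands are not replicates and each cluster has few. Of the 22 *Hox* islands of the other clusters that were tested, 0 passed in any of the 4 comparisons (limma adjusted p). At an unadjusted limma p under 0.05 there were 5 and 1 of the 22 for the genotypes at day 2 and day 2.5. For the days there were 1 in *Smchd1* wt and 1 in *Smchd1* matΔ. In the same order, the shares of all islands tested with such a p were 4.21%, 4.29%, 4.07% and 4.41%.

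**Figure D4:**
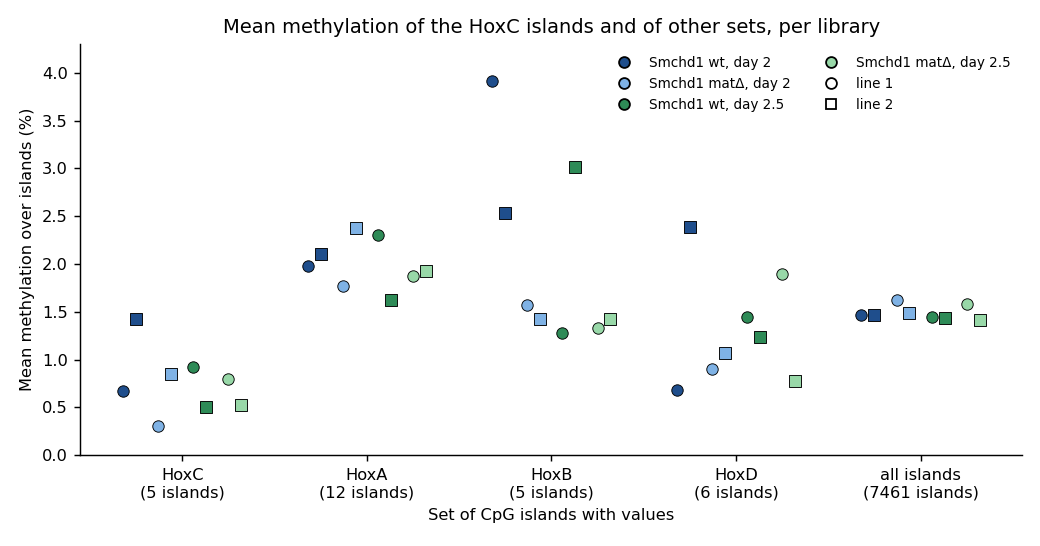
Mean percent methylation (y axis) over the islands of each *Hox* cluster and over all islands with a value (x axis), 1 point per library; colours give genotype and day as labelled, circles line 1 and squares line 2. The 8 *HoxC* means lie between 0.308% and 1.42%, under those of the other sets in the same library. The *HoxA* and *HoxB* means include single islands with means of 7.23% and 7.53% over the 8 libraries.

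Over the 8 libraries, the *Hox* islands whose values went most with those of *Hoxc8*, the *HoxC* island of the highest mean, were an island over untranslated sequence of *Hoxa10* (chr6:52240324-52240829, Pearson r = 0.615), an island next to the non-coding gene *Hoxaas3* (chr6:52175602-52176167, r = 0.561) and the *Hoxc11* island (r = 0.542). The libraries are 8 from 4 lines and differ in unknown depth, so these are descriptions of low values.

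Overlap with coding sequence, which did not enter the choice of islands, was common to all 5, from 279 coding bp in the *Hoxc8* island to 726 in that of *Hoxc13*. Among the 23 islands of the other clusters with values, 14 held coding sequence. Base composition varied within *HoxC*. The GC content was 71.3% for *Hoxc13*, 63.3% for *Hoxc11*, 68.9% for *Hoxc9*, 65.9% for *Hoxc8* and 61.5% for *Hoxc5*, where the median of all islands with a value was 69.6%. CpG density was 12.1 per 100 bp at *Hoxc9*, 10.8 at *Hoxc13*, 9.78 at *Hoxc8*, 8.20 at *Hoxc11* and 7.28 at *Hoxc5*, against a median of 10.6. Length did not follow the order of methylation, from 624 bp at *Hoxc8*, which had the highest level, and 659 bp at *Hoxc9*, which had the lowest, to 1127 bp at *Hoxc5*, which had the next highest level after *Hoxc8*.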

How the data were processed

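RRBS was done on 8 libraries. According to the study's methods, the authors trimmed 75 bp single-end reads with TrimGalore and Cutadapt 1.15, mapped them to GRCm38.p6 with Bismark 0.20.0, and summarised each CpG island in SeqMonk if every library reached a minimum of reads. What the authors deposited is a percent for each island in each library, with no scaling between libraries and no read counts, so levels resting on few reads are coarse and no test on reads was possible. The 4 mean columns of the *Hox* table were not used.

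Groups came from sample titles, and islands were annotated with GENCODE M21. All 13840 listed islands began and ended with CG in GRCm38.p6 at their 1-based positions. Of 7461 islands with values, 265 constant ones were left out and 7196 fitted with limma 3.58.1 (R 4.3.3), with 1 mean per group, a variance trend, 4 residual degrees of freedom, two-sided tests and Benjamini-Hochberg adjustment over the islands fitted. Intervals of 95% are unadjusted. The step was tested only on island values shuffled over the libraries with shifts added for *Smchd1* matΔ at day 2. Those shifts were larger than any *HoxC* difference with all libraries, so recovery of differences this small was not tested.

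Line numbers pair the days of a genotype, which share cell lines (differences between lines correlated across islands with r = -0.0628 in *Smchd1* wt and 0.197 in *Smchd1* matΔ). Across genotypes they are only numbers.

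Members, comparisons and the naming rule (every *HoxC* island with a value, and the 3 *Hox* islands most like the one of the highest mean) were chosen with earlier results of these data known. Alternatives were log2 with an offset of 1, islands of at least 1%, robust or untrended variance, 4 libraries only, line as a block, library scaling, each library left out, a 5 kb in place of a 2 kb window around gene starts and, for means over islands, the median and a weight by length.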

Additional observations from a re-analysis of the deposited data

Results flagged for a closer look

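The *Hoxc13* island was picked out because its difference between day 2 and day 2.5 had opposite signs in the genotypes in every line. It was negative in both *Smchd1* wt lines, at -0.567 and -0.778 points, and positive in both *Smchd1* matΔ lines, at 0.216 and 0.179. The interaction was 0.87 points (limma SE 0.446, 95% interval -0.20 to 1.94, unadjusted p = 0.0956, adjusted p = 0.867), so it did not pass. It ran from 0.73 to 1.01 when single libraries were left out. Without the variance trend its 95% interval was 0.12 to 1.62, and it did not pass adjustment there either (limma adjusted p = 0.912). Of all islands tested, 6.49% showed such opposite signs in every line.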

How the results depend on the processing

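The number of *HoxC* islands past the adjusted threshold was 0 in each of the 5 contrasts under each of the alternatives tried, and the smallest limma adjusted p of any *HoxC* island under any of them was 0.13, for *Hoxc11* between the days in *Smchd1* wt without line 1 of day 2. With line as a replicate block the count stayed at 0 in all contrasts and no call changed. The block was the cell line for the day contrasts and the line number for the genotype contrasts and the interaction. Such numbers pair nothing across genotypes, and the interaction was not fitted with the lines of each genotype paired across the days. The interaction could not be fitted with 4 libraries only, *Hoxc9* at day 2 and *Hoxc11* at day 2.5 had no variation in such a fit, and only *Hoxc8* reached a mean of 1%. Unadjusted intervals did depend on the variance trend. Without it, those of *Hoxc13* also excluded 0 for the genotypes at day 2 (-1.25 to -0.19, limma adjusted p = 0.947). The same held for the days in *Smchd1* wt (-1.20 to -0.14, limma adjusted p = 0.987). Leaving out 1 library leaves a lone sample that is assumed to vary like the other groups, and up to 121 of all islands then passed, none of them *HoxC*. Averaged over its islands, the *HoxC* difference between genotypes became -0.97 at day 2 and -0.95 at day 2.5 when only islands of at least 1% (*Hoxc8*) were kept, and 0.28 at day 2.5 with the median. With single libraries left out it ran from -0.84 to -0.09 at day 2 and from -0.26 to 0.15 at day 2.5, and the day difference from -0.70 to 0.05 in *Smchd1* wt and from -0.19 to 0.35 in *Smchd1* matΔ.

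Directions of single islands changed only when a library was left out, in 19 of the 120 values whose comparison included the library left out. For *Hoxc9* the genotype difference at day 2.5 and the interaction both ran from -0.29 to 0.50. For *Hoxc8* the day difference ran from -0.81 to 0.96 in *Smchd1* wt and from -0.43 to 0.64 in *Smchd1* matΔ, and the interaction from -0.86 to 0.91. For *Hoxc5* the genotype difference at day 2.5 ran from -0.0466 to 0.87, the day difference from -0.0701 to 0.68 in *Smchd1* wt and from -0.44 to 0.48 in *Smchd1* matΔ, and the interaction from -0.74 to 0.18. At *Hoxc11* the day 2 genotype difference kept its sign but ran from -1.98 without line 1 to -0.69 without line 2 of *Smchd1* wt, and at *Hoxc13* the day 2.5 one ran from 0.0115 to 0.29. A 5 kb window added *Hoxc9* to its island and *Hoxc4* and *Hoxc6* to that of *Hoxc5*.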
